A study of Mus musculus with 6 samples.

Results

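Dntt and 8 genes of lymphocyte antigen receptors and their partners (Rag1, Cd79a, Cd79b, Cd3d, Cd3e, Cd3g, Ptprc and Cd74) were followed in livers of mice lacking SIRT7 and of wild-type mice, to ask whether Dntt moved together with B and T cell genes. These 9 genes, of 12393 on the array, were taken as every probe set whose annotation held exactly 1 gene symbol, that of a listed gene. They had 11 probe sets, 3 of them for Dntt, and each gene is represented by its brightest probe set, judged by the mean of all 6 arrays. Dntt was chosen by its measured knockout and wild-type values, having the smallest p among the genes that were higher in knockout livers, so its difference is given as a description with no test, and the other 8 were added as lymphocyte genes.

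The groups were livers of SIRT7 knockout mice (Sirt7 allele knock-out, 3 samples) and livers of wild-type mice (Sirt7 allele wild-type, 3 samples), each on its own 1-colour Affymetrix array, with all samples treated alike, per the labels. The study's title links SIRT7, a nuclear NAD-dependent deacylase, to MYC activity and tumorigenesis. Strain, age, sex and diet are not in the labels, and neither is whether each liver is from its own animal. The p-values therefore cover only sample-to-sample spread, possibly technical. All values below are GCRMA expression values on the log2 scale, and differences are knockout minus wild type. A gene was tested where its mean over 6 livers was at least 4, which 8343 genes and 7 of the 9 passed. Rag1 and Cd3g, at means of 3.98 and 3.89, did not pass and are given as values.

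Sirt7 itself was at 2.38, 3.11 and 2.86 in the knockout livers, against 9.85, 9.80 and 9.57 in the wild-type livers, so each library matched its label. The 11 hepatocyte markers, among them the apolipoprotein gene Apoa1, averaged between 12.2 and 12.6 in the knockout livers and between 12.4 and 12.6 in the wild-type livers. Wild-type replicate 3 stood apart from the other wild-type livers in cell cycle genes, as described further on. Limma called 0.024% of the tested genes at an adjusted p under 0.05, 2 of 8343, and 0 of the 7 tested members. At an unadjusted p under 0.05 the share was 6.46% (3.04% higher, 3.42% lower) and 1 of 7 members, Dntt. The groups did not overlap for 9.74% of the tested genes (4.27% higher, 5.48% lower) and for the same 1 of 7, and 1.25% of the tested genes, again with Dntt as the 1 member, differed by more than 1 log2 unit upward. Nothing is read from these counts for Dntt, which was chosen on this contrast.

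Terminal deoxynucleotidyl transferase, the product of Dntt, is a DNA polymerase that needs no template. It adds nucleotides to the ends that the RAG1 and RAG2 recombinase leaves while B and T cell precursors assemble their antigen receptor genes, which makes the joints diverse. The finished receptors reach the surface with signalling partners, CD79A and CD79B in B cells and the CD3 chains in T cells. In the adult mouse these precursors reside in bone marrow and thymus, whereas mature lymphocytes also circulate through the liver, whose other resident immune cells include Kupffer cells, the macrophages of the hepatic sinusoids.

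The promoters of Dntt, of the B cell receptor gene Cd79a and of the T cell receptor gene Cd3d are shown because these 3 genes stand for the patterns compared below. Each runs 5′ to 3′ from 250 bases before to 50 bases after the RefSeq gene start (GRCm38.p6), and capitals mark the E-box CANNTG and the Ikaros core GGGAA, searched on both strands. E-boxes are bound by E proteins and Ikaros sites by a zinc finger factor, both regulators of lymphocyte development. These windows lie at chr19:41029025-41029324 (plus strand), chr7:24897247-24897546 (plus strand) and chr9:44981536-44981835 (plus strand).
Dntt: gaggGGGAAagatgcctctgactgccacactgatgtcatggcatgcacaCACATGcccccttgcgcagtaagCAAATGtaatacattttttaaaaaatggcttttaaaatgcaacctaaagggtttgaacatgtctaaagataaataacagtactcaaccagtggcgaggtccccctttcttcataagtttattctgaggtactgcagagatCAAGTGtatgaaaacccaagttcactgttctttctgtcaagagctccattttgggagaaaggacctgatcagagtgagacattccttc
Cd79a: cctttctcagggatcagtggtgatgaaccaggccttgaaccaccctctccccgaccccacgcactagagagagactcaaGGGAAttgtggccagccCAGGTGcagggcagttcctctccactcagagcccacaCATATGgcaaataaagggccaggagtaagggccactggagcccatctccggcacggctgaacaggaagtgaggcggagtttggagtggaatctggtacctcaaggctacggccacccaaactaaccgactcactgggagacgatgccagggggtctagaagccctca
Cd3d: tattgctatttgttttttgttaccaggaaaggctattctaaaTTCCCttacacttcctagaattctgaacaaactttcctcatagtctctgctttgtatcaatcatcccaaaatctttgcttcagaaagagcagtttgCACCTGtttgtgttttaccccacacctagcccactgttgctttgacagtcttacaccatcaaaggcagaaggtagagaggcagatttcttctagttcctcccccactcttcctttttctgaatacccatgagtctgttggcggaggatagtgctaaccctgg
Dntt had 3 E-boxes and 1 Ikaros core, Cd79a 2 and 1, and Cd3d 1 and 1, with 0 bases shared between the motifs. Both motifs are common, with an E-box in 72.3% and an Ikaros core in 62.7% of 32851 RefSeq promoters of this length, so their presence in these windows is a description only.

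Dntt was higher in every knockout liver. Its brightest probe set, whose identifier ends in _x_at, read 9.02, 8.83 and 8.63 in knockout replicates 1 to 3, against 7.06, 7.29 and 7.75 in wild-type replicates 1 to 3. The groups did not overlap, knockout replicate 1 was the highest liver and wild-type replicate 3 the highest of its group. The means were 8.82 ± 0.19 and 7.37 ± 0.35 (SD, n = 3 each), a difference of 1.46 (SE 0.23), which is 2.75-fold on this scale.

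The other Dntt probe sets also separated the groups, although the order of livers within the groups differed in part. The probe set ending in plain _at read 8.99, 8.58 and 8.22 in knockout livers, against 7.46, 7.30 and 7.39 in wild-type livers. The probe set ending in _a_at read 5.97, 5.54 and 5.57 in knockout livers, against 4.18, 3.82 and 4.80 in wild-type livers. Knockout replicate 1 was the highest of the 6 livers on each of them, and their differences were 1.21 and 1.43. The highest wild-type liver was replicate 1 on the plain _at set and replicate 3 on the _a_at set. After subtracting each group's mean, Pearson's r between pairs of the 3 probe sets lay between 0.43 and 0.78. The within-group r and profile distances below use the brightest probe set unless stated. On arrays of this design the ending _x_at marks a probe set with probes that can match other sequences, and _a_at one that can match several transcripts of a gene. The plain _at ending carries neither mark. Without 1 liver the main difference lay between 1.31 and 1.65.

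**Figure D1:**
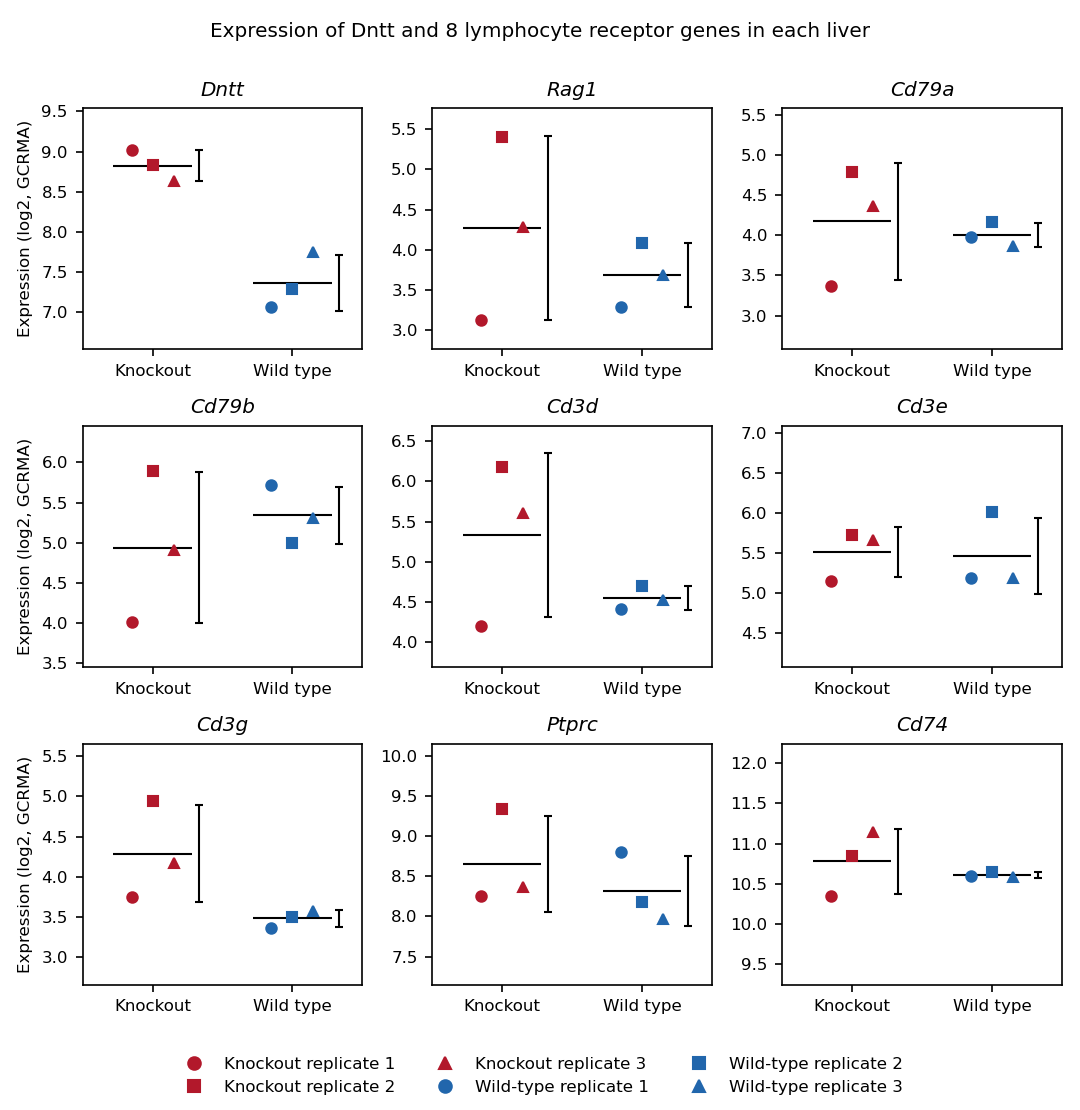
Expression (log2, GCRMA) of the 9 genes, with knockout livers in red on the left and wild-type livers in blue on the right of each panel, 1 marker shape per replicate number, lines for means and bars for SD (n = 3). Each vertical axis spans the same range of log2 units; Dntt separates the groups, whereas in most other panels knockout replicate 2 is the highest knockout liver and knockout replicate 1 the lowest.

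Rag1, the catalytic subunit of the recombinase that works beside Dntt in lymphocyte precursors, did not separate the groups. It read 3.12, 5.40 and 4.29 in knockout replicates 1 to 3, against 3.29, 4.09 and 3.69 in wild-type replicates 1 to 3. Knockout replicate 2 was the highest and knockout replicate 1 the lowest of all 6 livers, although Dntt was highest in knockout replicate 1. The difference of 0.58 (SE 0.52, from the fit of every probe set without the filter) had a 95% interval of -0.62 to 1.79. These values lie near the lower end of the scale, where log2 differences are not proportional to RNA amounts.

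The B cell receptor genes differed little on average and widely within the knockout group. Cd79a, the Ig-alpha signalling chain, read 3.37, 4.79 and 4.37 in knockout livers, against 3.97, 4.17 and 3.87 in wild-type livers. These Cd79a values lie near the lower end of the scale, as those of Rag1 do. Cd79b, the Ig-beta chain, read 4.02, 5.89 and 4.90 in knockout livers, against 5.71, 5.00 and 5.31 in wild-type livers. For both, the wild-type values lay inside the range of the knockout values. The differences were 0.17 for Cd79a (95% interval -0.60 to 0.94, limma adjusted p = 0.922) and -0.40 for Cd79b (-1.38 to 0.58, adjusted p = 0.863), which leaves room for a change in either direction.

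The T cell receptor genes were split. Cd3d, the delta chain of the CD3 complex, read 4.20, 6.18 and 5.61 in knockout livers, against 4.41, 4.70 and 4.53 in wild-type livers. Knockout replicates 2 and 3 lay above every wild-type liver and knockout replicate 1 below every one of them. The difference was 0.78 (95% interval -0.22 to 1.78, limma adjusted p = 0.794), and with 1 liver left out in turn it lay between 0.36 and 1.35. The lowest of these was without knockout replicate 2 and the highest without knockout replicate 1. With array weights, which give less weight to arrays that fit the model less well, the difference was 1.39 and limma called it (adjusted p = 0.024). In that fit limma called 1748 of the 8343 tested genes, against 2 in the main fit, and the Cd79b difference went from -0.40 to 0.51.

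Cd3g, the gamma chain, read 3.75, 4.95 and 4.17 in knockout livers, against 3.36, 3.50 and 3.58 in wild-type livers. It was the only one of the other 8 whose groups did not overlap, which also held, in this direction, for 4.49% of all 12393 genes without the filter. Its difference was 0.81 (SE 0.29, from the fit of every probe set without the filter). Like those of Rag1, Cd3g values lie near the lower end of the scale, where log2 differences are not proportional to RNA amounts. The limma adjusted p was 0.781 in the fit of 1 probe set per gene without the filter. Cd3e, the epsilon chain, read 5.16, 5.72 and 5.66 in knockout livers, against 5.20, 6.01 and 5.18 in wild-type livers, with wild-type replicate 2 the highest of the 6. It differed by 0.05 (95% interval -0.58 to 0.68, adjusted p = 0.978). The 3 CD3 genes are neighbours on chromosome 9.

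Ptprc encodes CD45, the receptor tyrosine phosphatase of all nucleated blood cells, which activates Src-family kinases at antigen receptors. It read 8.25, 9.34 and 8.36 in knockout livers, against 8.81, 8.18 and 7.96 in wild-type livers, and the groups overlapped. The difference was 0.34 (95% interval -0.43 to 1.10, limma adjusted p = 0.853). It was -0.00867 without knockout replicate 2, whereas with array weights it was 0.92 and limma called it (adjusted p = 0.037). That weighted fit called 1748 of the 8343 tested genes.

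Cd74 encodes the invariant chain that escorts MHC class II molecules in B cells, dendritic cells and macrophages. It read 10.3, 10.8 and 11.1 in knockout livers, against 10.6, 10.7 and 10.6 in wild-type livers. The wild-type livers were nearly alike (SD 0.038) and the knockout livers lay on both sides of them (SD 0.403), with a difference of 0.17 (95% interval -0.36 to 0.70, limma adjusted p = 0.879).

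Among the 8 genes other than Dntt, 7 differences were above 0 and 1 was below, with a median of 0.25 and a range of -0.40 to 0.81. Over all tested genes the median was -0.032 and 45.4% of differences were above 0. Single knockout livers moved several of these values. Without knockout replicate 2 the difference was 0.017 for Rag1, -0.13 for Cd79a, -0.88 for Cd79b and -0.054 for Cd3e. Without knockout replicate 1 it was 1.16, 0.57, 0.059 and 0.23 for the same genes in that order. Cd74 lay between -0.013 without knockout replicate 3 and 0.39 without knockout replicate 1. The median of the 8 rested on single knockout livers, since it was 0.55 without knockout replicate 1 and 0.00442 without knockout replicate 2. In bulk samples fewer cells of a type and less RNA per cell cannot be told apart.

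The order of the knockout livers was not the same for Dntt and for the others. All 8 were lowest among the knockout livers in replicate 1, as were 40.2% of the tested genes. Of the 8, 7 were highest there in replicate 2, against 21.2% of the tested genes, the exception being Cd74, which was highest in replicate 3. Of the 6 that were tested, 5 had the order of replicate 2 highest and replicate 1 lowest, an order found in 9.55% of the tested genes. Knockout replicate 1 was the highest knockout liver for Dntt, for 0 of these 6, and for 31.4% of the tested genes. Averaged over the 8 genes, the deviation from the mean of all 6 livers was -0.56, 0.80 and 0.23 in knockout replicates 1 to 3, against -0.17, -0.05 and -0.25 in the wild-type livers.

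Within the groups the other genes were spread to different degrees. The residual SD was 0.73 for Cd3d, 0.71 for Cd79b, 0.53 for Cd79a and 0.52 for Ptprc, and 3.28%, 3.61%, 9.69% and 9.77% of the tested genes had a larger one. Cd3e (0.40) and Cd74 (0.29) were less spread, and the untested Rag1 and Cd3g had residual SDs of 0.85 and 0.44. For Dntt the residual SD was 0.28, and 49.7% of the tested genes had a larger one.

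**Figure D2:**
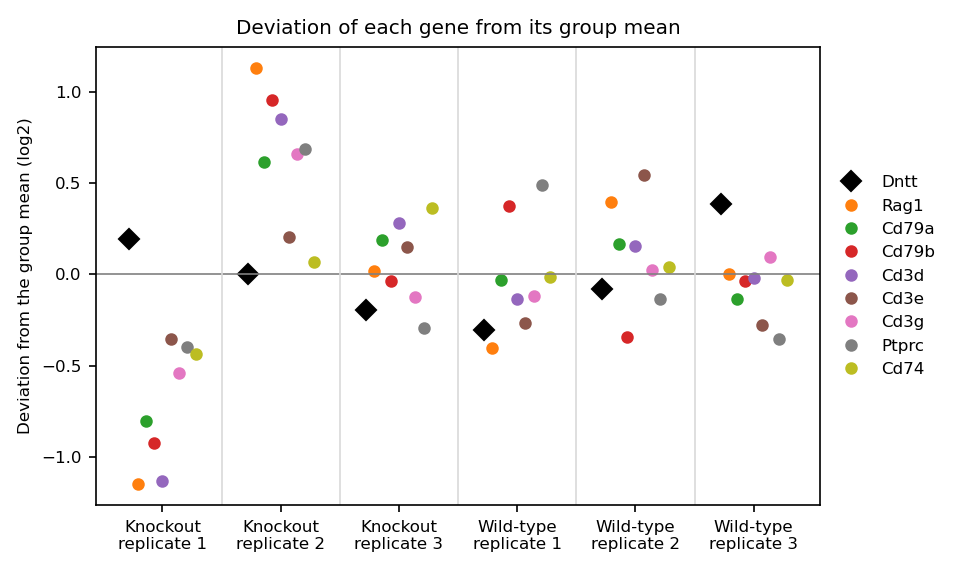
Deviation of each gene from the mean of its own group (log2) in each liver; Dntt is drawn as black diamonds and the other 8 genes as coloured circles. In knockout replicate 1 Dntt lies above 0 and all 8 others below, and in knockout replicate 2 all 8 others lie above Dntt.

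Covariation within the groups was measured after subtracting each group's mean, so that the difference between the groups did not enter. Pearson's r of Dntt with the 8 other genes over the 6 livers was negative for all 8, between -0.51 for Cd74 and -0.015 for Cd3g, with a median of -0.35. Over all 8342 other tested genes the median r was -0.065 and 53.3% were negative. In the exact 2-sided permutation of livers within groups (36 arrangements, smallest possible p = 0.028), 0 of the 8 had a p under 0.05 for Pearson's r and 0 for Spearman's rho.

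Cd74 had the smallest p, at r = -0.51 (exact permutation p = 0.139, adjusted p = 0.512 over all tested genes) and rho = -0.54 (p = 0.250, adjusted p = 0.685). Ptprc followed in size at r = -0.49 (exact permutation p = 0.333) and rho = -0.54 (p = 0.306). For Cd3d r was -0.30 (exact permutation p = 0.528) and rho -0.14 (p = 0.833), and for Rag1 r was -0.14 (p = 0.750) and rho -0.086 (p = 0.944). Spearman's rho was positive only for Cd3g, at 0.26 (exact permutation p = 0.611). With 6 livers this test can pass only a very close relation, so a weaker one was not detectable.

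Wild-type replicates 3 and 1 deviated most from the median of Dntt after centring. Without them the only wild-type liver left is 0 by construction, so that r rests on the 3 knockout livers alone, where it was -0.99 to -0.074, and says nothing of both groups. Without knockout replicate 1 the median r was -0.038, and r turned to 0.40 for Rag1, 0.33 for Cd3d and 0.50 for Cd3g. It was then -0.075 for Cd79a, -0.00115 for Cd79b and -0.19 for Cd3e, whereas Ptprc (-0.37) and Cd74 (-0.36) kept more of their size. With the other Dntt probe sets the median r was -0.59 (plain _at) and -0.48 (_a_at).

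Among themselves the 8 genes varied in the same sense. All 28 pairs had a positive within-group r, with a median of 0.70 and a range of 0.16 to 0.99, where all pairs of tested genes had a median of 0.021 and 51.1% were positive. This is a description without a p, since the pairs share the same 6 livers and knockout replicates 1 and 2 are far apart in most of the 8 genes.

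Most other B and T cell genes, from lists that hold none of the 9, had the liver order of the 8 genes. Of 7 tested B cell genes 5 were highest among knockout livers in replicate 2 and 6 were lowest in replicate 1. The shares over all tested genes were 21.2% and 40.2%. Cd37, a tetraspanin gene, was the 1 gene of this list whose groups did not overlap, where 5.48% of all tested genes were lower without overlap. It read 3.84, 4.04 and 4.06 in knockout livers, against 4.25, 4.08 and 4.32 in wild-type livers, with knockout replicate 3 the highest knockout liver. Ms4a1, the CD20 gene, read 3.87, 6.96 and 5.38 in knockout livers, against 6.90, 5.87 and 5.69 in wild-type livers. Igk, the locus of the kappa light chain, read 6.09, 9.42 and 8.08 in knockout livers, against 7.99, 7.33 and 7.98 in wild-type livers. Ms4a1 and Igk were lowest of all livers in knockout replicate 1, where Dntt was highest.

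Of 7 tested T cell genes, 5 were highest among knockout livers in replicate 2 and 6 were lowest in replicate 1, against 21.2% and 40.2% of all tested genes. Cd8a, the co-receptor chain of cytotoxic T cells, read 3.92, 6.37 and 5.62 in knockout livers, against 4.53, 4.58 and 4.41 in wild-type livers. Zap70, the kinase recruited to CD3 chains and the brightest of this list, ran the other way, at 6.58, 5.61 and 5.64 in knockout livers, against 6.07, 6.01 and 6.13 in wild-type livers. Ms4a1, Cd72 and Cd8a are named after their values were seen.

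This liver order was not confined to lymphocyte genes. All 3 tested neutrophil markers were highest among knockout livers in replicate 2 and lowest there in replicate 1, and so were 4 of 5 tested MHC class II genes on each count. The shares over all tested genes were 21.2% and 40.2%, with 9.55% on both counts. S100a9, a calcium-binding protein gene of neutrophils, read 8.76, 9.99 and 9.95 in knockout livers, against 8.99, 8.42 and 9.23 in wild-type livers. Slc4a1, the anion exchanger of red cells, read 5.95, 7.02 and 6.42 in knockout livers, against 5.36, 4.39 and 5.69 in wild-type livers (difference 1.32, SE 0.38, limma adjusted p = 0.725). It did not stand for its list, as 1 of the 3 tested erythroid markers differed by more than 0 and 2 by less (median -0.14). All 3 were lowest among knockout livers in replicate 1, but only 1 was highest there in replicate 2. The part of blood cells in these values was not tested.

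The pan-leukocyte, NK, dendritic cell and progenitor lists had small median differences. Among 17 tested pan-leukocyte genes 13 differences were above 0 and 4 below (median 0.23). Rac2, a GTPase of blood cells, was the 1 whose groups did not overlap (0.52, SE 0.25, limma adjusted p = 0.775). Over all tested genes 9.74% did not overlap and 45.4% of differences were above 0. The perforin gene Prf1 differed by 0.22, the dendritic cell factor Zbtb46 by 0.058 and the progenitor factor Gata2 by -0.32 (limma adjusted p of 0.863, 0.973 and 0.790). The groups overlapped for Prf1 and Zbtb46 and not for Gata2. Their lists were mixed, with 2 differences above 0 and 1 below for NK, 2 and 1 for dendritic cell and 3 and 3 for progenitor genes. The medians were 0.22, 0.058 and -0.002.

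Limma called 0 of the 7 B cell, 4 immunoglobulin and plasma cell, 7 T cell and 3 NK cell genes. None (0) of them had an unadjusted p under 0.05, against 6.46% of all tested genes. The median differences of these lists were -0.24, 0.31, 0.16 and 0.22. Without knockout replicate 2 they were -0.45, -0.36, -0.088 and 0.26, so that the sign for immunoglobulin and T cell genes turned on that liver. The mean deviation of the immunoglobulin genes was -1.46, 1.37 and 0.44 in knockout replicates 1 to 3, against -0.012, 0.10 and -0.44 in the wild-type livers.

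Genes particular to lymphocyte precursors were under the filter. Rag2, the partner of RAG1, lay between 2.39 and 2.79 in knockout livers and between 2.18 and 2.43 in wild-type livers. Igll1, of the surrogate light chain of the pre-B cell receptor, lay between 3.01 and 3.66 in knockout livers and between 2.86 and 3.69 in wild-type livers. Vpreb1, the other surrogate light chain gene, lay between 3.56 and 4.18 in knockout livers and between 3.68 and 4.30 in wild-type livers. Ptcra, the pre-T cell receptor alpha chain, lay between 2.48 and 2.94 in knockout livers and between 2.82 and 3.19 in wild-type livers. For all 4 the groups overlapped, and the values carry no detection call. These 4 genes are named after their values were seen.

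Of the V(D)J recombination and end joining list, 9 genes were tested, and limma called 0. Hmgb2, a DNA-bending cofactor of the recombinase, read 9.24, 9.11 and 8.27 in knockout livers, against 7.23, 6.92 and 8.66 in wild-type livers. It was the 1 gene of this list with an unadjusted p under 0.05, a share of 6.46% over all tested genes. It is named after its values were seen, and its groups overlapped through wild-type replicate 3. Xrcc6, the Ku70 subunit that binds broken ends, read 8.63, 8.61 and 8.61 in knockout livers, against 8.48, 8.28 and 8.25 in wild-type livers (difference 0.28, SE 0.18, limma adjusted p = 0.796). The relatives of Dntt in polymerase family X, the repair polymerases Polb, Poll and Polm, differed by -0.24, 0.15 and -0.15, all with overlapping groups. Poll and Polm are named after their values were seen.

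Partners of the antigen receptors and of Cd74 gave no calls either. Among 10 tested antigen receptor signalling genes 4 differences were above 0 and 6 below (median -0.097), and limma called 0, with 0 at an unadjusted p under 0.05. Lcp2, the SLP-76 adaptor of T cells, read 4.59, 4.57 and 4.60 in knockout livers, against 4.94, 4.80 and 4.89 in wild-type livers (difference -0.29, SE 0.17, adjusted p = 0.796). Among 5 tested MHC class II genes the median difference was 0.13, with limma calling 0 and 0 at an unadjusted p under 0.05. Their within-group r with Dntt was negative for 5 of 5, against 53.3% of all tested genes. At an unadjusted p under 0.05 the share over all tested genes was 6.46%. Ctss, the protease that trims the invariant chain, was the brightest of the 5 MHC class II genes and differed by -0.025.

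**Figure D3:**
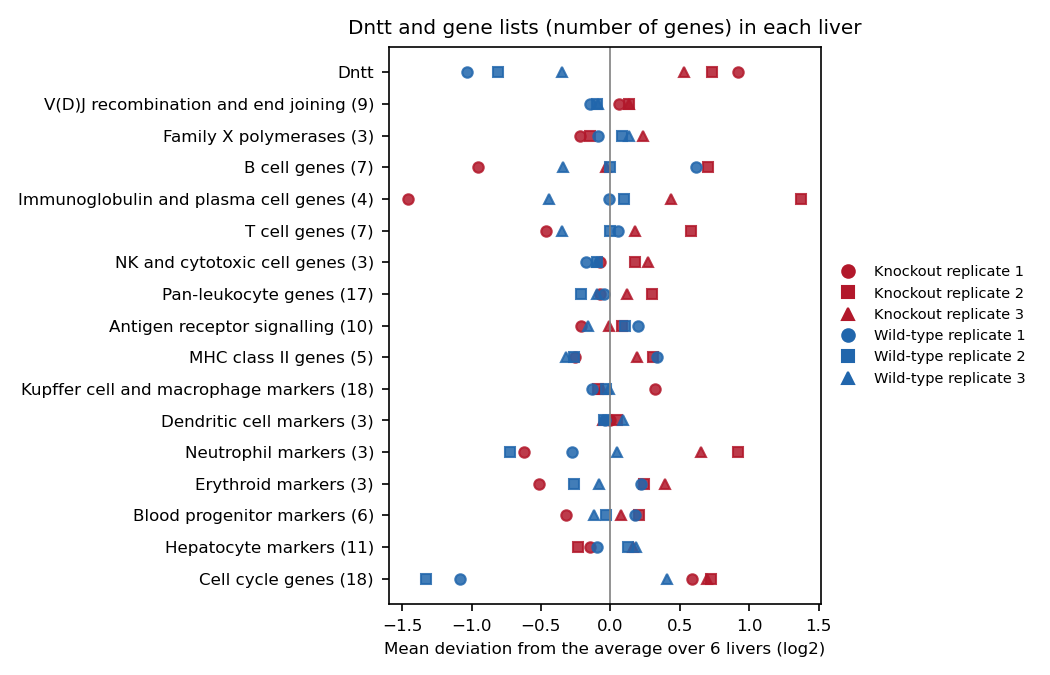
Mean deviation of each gene list, and of Dntt alone, from the average over 6 livers (log2, horizontal axis) in knockout livers (red) and wild-type livers (blue), with the number of tested genes in parentheses. B cell, immunoglobulin and T cell genes are lowest in knockout replicate 1, where Dntt is highest; cell cycle genes are low in wild-type replicates 1 and 2.

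The genes nearest to Dntt in profile were of other kinds. By root mean square distance between profiles centred on each gene's mean over the 6 livers, the closest of 8342 tested genes were Cdkn2d (distance 0.19), an inhibitor of cyclin-dependent kinases, Sgce (0.20), the epsilon-sarcoglycan gene, Pclaf (0.22), a partner of the replication clamp PCNA, E2f1 (0.23), a cell cycle transcription factor, and Morc4 (0.29). The 6 tested members lay at ranks 2930 (Cd74) to 7918 (Cd79b). Cdkn2d read 6.08, 5.75 and 5.35 in knockout livers, against 4.33, 4.53 and 4.83 in wild-type livers. E2f1 read 5.57, 5.11 and 4.91 in knockout livers, against 3.17, 3.75 and 4.57 in wild-type livers. Both followed the brightest Dntt probe set in the order of all 3 knockout and all 3 wild-type livers. E2f1 is also on the cell cycle list described further on, and since the distance includes the contrast that chose Dntt, this ranking is a description.

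By within-group r alone, Apaf1, Neu1, Mrnip, Ilkap and Rab8a were the most like Dntt, each at r of at least 0.99 (exact permutation p = 0.028, the smallest possible; lowest adjusted p over all tested genes 0.395). Neu1, a lysosomal sialidase gene, read 8.11, 7.86 and 7.45 in knockout livers, against 6.74, 7.16 and 7.81 in wild-type livers. Apaf1, of the apoptosome, read 6.43, 6.09 and 5.65 in knockout livers, against 5.66, 6.03 and 6.80 in wild-type livers, so it shared the order within groups and not the difference between them.

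Cell cycle and macrophage markers are given as values. The 18 tested cell cycle genes had a mean deviation of 0.59, 0.73 and 0.69 in knockout replicates 1 to 3, against -1.08, -1.33 and 0.41 in wild-type replicates 1 to 3. Wild-type replicate 3 was also the highest wild-type liver on the brightest and _a_at probe sets of Dntt, and not on the plain _at set. The knockout means of the cell cycle genes were close to each other, the lowest in replicate 1, where Dntt was highest. Of the 18, 8 were lowest there, as were 40.2% of all tested genes, so nothing is read from this count. The median within-group r of the 18 cell cycle genes with Dntt was 0.60, with 1 of 18 negative, against 53.3% of all tested genes. Limma called 0 of the 18. An unadjusted p under 0.05 was found for 14, all higher, against 3.04% of all tested genes in that direction. The largest differences without overlap were in Ccna2 (1.84), Bub1 (1.67) and Mcm6 (1.65). Ccna2, the cyclin A2 gene, read 8.79, 8.75 and 8.49 in knockout livers, against 6.29, 6.14 and 8.09 in wild-type livers.

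Kupffer cell and macrophage markers, of which all 18 on the array were tested, averaged between 8.62 and 9.03 in knockout livers and between 8.58 and 8.69 in wild-type livers, with the highest mean in knockout replicate 1. C1qa, a complement subunit made by macrophages, read 8.45, 7.68 and 7.25 in knockout livers, against 6.27, 6.72 and 7.25 in wild-type livers (difference 1.05, SE 0.35, limma adjusted p = 0.746). It had the largest difference of the list, whose median was only 0.12, with 12 differences above 0 and 6 below. Cd68 (0.50) and Tyrobp (0.43) were the others without overlap, where 4.27% of all tested genes were higher without overlap. Csf1r (-0.63) and Msr1 (-0.48), named after their values were seen, ran the other way, and limma called 0 of the 18. The median within-group r of this list with Dntt was 0.47, with 3 of 18 negative, against 53.3% of all tested genes. The part of proliferating cells or macrophages in the Dntt values was not tested.

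Genes next to Dntt on chromosome 19 did not share its difference. Of the 5 nearest tested genes on each side, in the order of assembly GRCm38.p6, 1 differed by more than 0 and 9 by less. Their median was -0.26, and the groups overlapped for all 10. Over all tested genes 45.4% differed by more than 0 and 9.74% did not overlap. Blnk, a B cell adaptor gene directly beside Dntt in this order, read 3.68, 4.81 and 4.53 in knockout livers, against 5.29, 4.93 and 4.54 in wild-type livers. Tm9sf3, on the other side, read 11.6, 11.4 and 11.0 in knockout livers, against 11.5, 11.2 and 11.3 in wild-type livers. Aldh18a1, of proline synthesis, was the 1 neighbour with an unadjusted p under 0.05 (difference -0.79, SE 0.34, limma adjusted p = 0.772). The share over all tested genes was 6.46%.

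Cytochrome genes of the Cyp2c cluster lie between 6 and 14 tested genes from Dntt on one side, with Cyp2c23 farther off on the other. Cyp2c39, 12 tested genes away, read 8.37, 9.42 and 8.42 in knockout livers, against 2.65, 7.35 and 3.20 in wild-type livers. Cyp2c37, 9 tested genes away, read 9.36, 4.16 and 5.53 in knockout livers, against 10.7, 10.4 and 10.8 in wild-type livers. Cyp2c39 and Cyp2c37 separated the groups in opposite directions, and their livers followed another order than those of Dntt. Of all 10 tested Cyp2c genes, 2 were higher without overlap (Cyp2c39, and Cyp2c38 at 2.78) and 5 overlapped. Another 3 were lower without overlap (Cyp2c37, Cyp2c50 at -0.60 and Cyp2c54 at -0.55). The shares without overlap over all tested genes were 4.27% higher and 5.48% lower. Limma called 0 of the 10 Cyp2c genes (lowest adjusted p 0.652). Cyp2c probe sets can share signal between close paralogs, and the genes between this cluster and Dntt, from Pdlim1 to Blnk, overlapped between the groups.

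**Figure D4:**
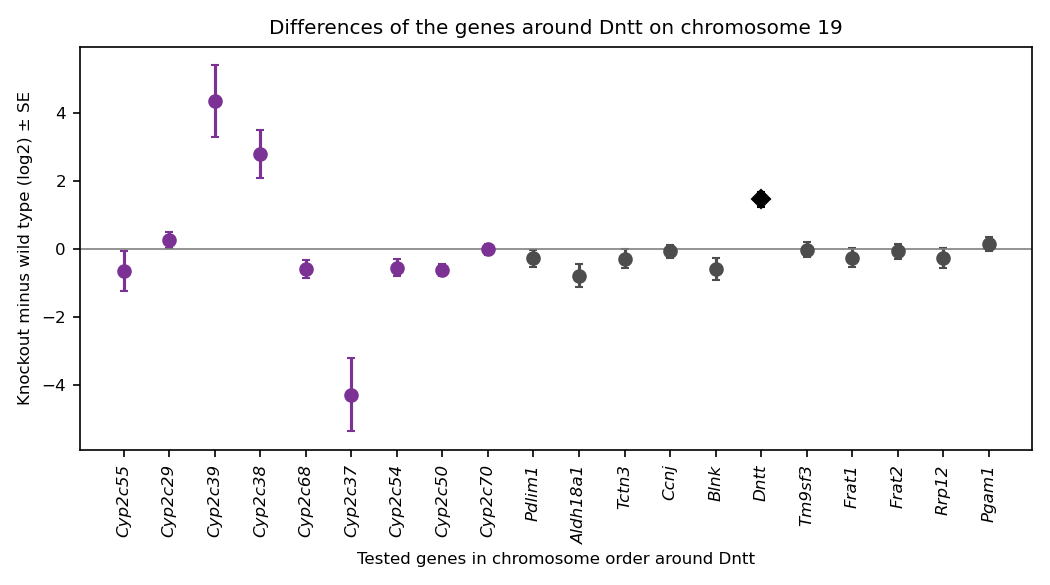
Difference of the tested genes around Dntt (knockout minus wild type, log2 ± SE) in chromosome order; Dntt is the black diamond, Cyp2c genes are purple and other genes grey. The 10 nearest genes lie between -0.79 and 0.14, against 1.46 for Dntt.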

How the data were processed

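The authors deposited 1 log2 expression value per probe set and array, which the submitters' processing notes credit to GCRMA 2.20.0 and R 2.11.1; its settings are not known here, and the log2 scale was read from the range of the values, 0.841 to 13.969. GCRMA models background from probe sequence, so low values crowd near the lower end, and no detection call was given. Precision is limited by the number of arrays. Of 22626 probe sets, 20380 had 1 gene symbol, 691 several and 1555 none or no entry; 20351 gene identifiers matched RefSeq (GRCm38.p6). Array medians lay between 5.69 and 5.77, and 0 pairs of arrays were identical.

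Groups were compared with limma 3.58.1 in R 4.3.3 (lmFit, eBayes, 2-sided, Benjamini-Hochberg over 8343 genes, residual degrees of freedom 4) without a block. SEs and intervals are limma's. Within-group covariation used exact permutations over all tested genes. Both steps were tested on simulated data. The genes named were the 9, Sirt7, the genes most like Dntt, its neighbours and Cyp2c genes, and from each of 16 lists the called genes and up to 3 with the largest differences and no overlap, or else the brightest; genes named outside this rule are marked in the text as chosen after their values were seen. Members and lists were chosen with earlier results of these data known. Alternatives were the filter, probe set choice, quantile normalization, array weights, an intensity trend, a replicate block and leaving out each array.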

Additional observations from a re-analysis of the deposited data

How the results depend on the processing

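The Dntt difference lay at 1.306 to 1.649 without 1 array and at 1.211 to 1.542 in the other alternatives. The latter include its other 2 probe sets, an alternative chosen after seeing the data. Dntt was chosen on this contrast and its groups did not overlap, so leaving out 1 array could not change the sign. These ranges are a description. The median difference of the 8 other genes lay between 0.00442 and 0.554 without 1 array and between 0.254 and 0.747 in the others; under the filter at a mean of 6 it could not be computed. Members called numbered 0 in all alternatives except 2: without wild-type replicate 3 limma called 1 (range 0 to 1 without 1 array), which was Dntt, and with array weights 3, which were Dntt, Cd3d and Ptprc. For Dntt these counts are no evidence, since it was chosen on this contrast. Of all genes, limma called 1748 with array weights, 4 with an intensity trend, 1 with the mean of probe sets and 1 to 38 without 1 array (38 without wild-type replicate 3), against 2; the cause of the rise with array weights was not tested. With the replicate number as a block limma called 2 genes and 0 members, and the Dntt difference was 1.457. Same-numbered livers did not deviate together (correlations -0.089, -0.091 and -0.194). These correlations cannot show whether a shared number stands for a pairing, which the labels do not state. The median within-group r of Dntt with the 8 genes was -0.534 with the mean of probe sets, -0.586 without the 2 livers farthest from the median of Dntt, which leaves only the 3 knockout livers to vary, and -0.476 to -0.038 without 1 array.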
